A study of Homo sapiens with 6 samples.

Results

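The 50 genes described here are DEAD-box and DEAH-box RNA helicases other than DDX5 and DDX17, together with close relatives that carry the same names. They were chosen by gene name and not by their values: 30 are named DDX, 3 are EIF4A genes, 16 are named DHX, and the last is YTHDC2. Earlier results of these data were known when the members, their roles and the partner lists were chosen. A further 11 genes of the families were listed apart and are not counted among the 50. All 50 were found among the 35580 genes to which the deposited transcripts were joined, and all 50 passed the filter on low counts that left 15204 genes for testing. One of them, DDX12P, is annotated as an unprocessed pseudogene, and the other 49 are protein-coding.

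Gene expression was profiled by sequencing of messenger RNA in Rh30. This cell line comes from an alveolar rhabdomyosarcoma and is labelled as positive for the PAX3-FOXO1 gene fusion, which both groups carried. Cells with a knockdown of DDX5, labelled siDDX5, were compared with cells labelled control. Each group held 3 libraries, made with a stranded TruSeq mRNA kit and given by the series as biological replicates. Both groups come from 1 cell line, and the siRNA sequence, the treatment of the control cells and the time of harvest are not given in the sources used here.

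RNA helicases of these families use ATP to open short RNA duplexes, to strip proteins from RNA or to clamp onto it. Nearly every step in the life of an RNA has its own members, from ribosome assembly and splicing to export, translation and decay. DDX5, the knocked-down gene, belongs to the DEAD-box family and acts in transcription, splicing and microRNA processing.

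The families take their name from helicase motif II, the short stretch that binds ATP together with a magnesium ion. Its coding sequence is shown for 12 members of different roles, taken from both families. Each line gives 30 bases of the annotated messenger RNA of GENCODE release 29 (GRCh38), written 5′ to 3′, with the 4 codons of the box in capitals.
EIF4A1: tttgtactgGATGAAGCTGACgaaatgtta
EIF4A2: tttgttttgGATGAAGCAGATgaaatgttg
EIF4A3: ttggttttgGATGAAGCTGATgaaatgttg
DDX3X: ttggtgttaGATGAAGCTGATcggatgttg
DDX6: atagtattgGATGAGGCAGATaagttgctg
DDX19A: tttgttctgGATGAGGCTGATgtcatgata
DDX19B: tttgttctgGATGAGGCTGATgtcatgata
DDX39A: tttgtgctgGACGAGTGTGACaagatgctg
DDX39B: tttattttgGATGAATGTGATaagatgctt
DDX52: cttgtagtaGACGAATCAGATaaactgttt
DHX15: ataattcttGATGAGGCTCATgagaggaca
DHX40: attattttgGATGAAGCCCATgaaagaact
The search looked, on the coding strand and in frame, for a codon GAT or GAC, then GAA or GAG, then any codon, then GAT, GAC, CAT or CAC, placed between helicase motifs I and III. It found the box in 43 of the 50 members, whose coding transcripts were tried in turn until one matched. Of 19598 protein-coding genes, each searched in its longest coding sequence only, 0.332% passed (65 genes). The pattern was built from motifs of these families, so the higher share among the members was set in advance. The 7 members without a match were DDX11, DDX12P, DDX28, DDX51, DHX32, DHX58 and YTHDC2. A missing match does not show a missing box, because the search also required set patterns for motifs I and III. The fourth codon of these 7 was not read, so what follows covers matched members only. The fourth codon was GAT or GAC in all 29 matched DDX and EIF4A genes and CAT or CAC in all 14 matched DHX genes. The third codon was GCN in 32 of the 43 and GTN in 6. It was TGT in both DDX39A and DDX39B, and in no other matched member. The windows of DDX19A and DDX19B were identical in all 30 bases.

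The libraries held 18202402 to 26156858 estimated counts, and all 3 siDDX5 libraries were less deep than the controls. What this difference in depth contributes to the results was not tested. Levels are given as CPM, counts scaled to a common library total with TMM factors, which serve to compare 1 gene between libraries. Where genes are compared with each other, levels are given as TPM, which also correct for transcript length. The 8 marker genes of the rhabdomyosarcoma line summed to 1180 to 1500 TPM in control against 1135 to 1199 TPM in siDDX5 libraries, and none was at 0. The 4 epithelial markers summed to between 2.97 and 4.72 TPM, PTPRC of blood cells to between 0.714 and 3.43 TPM, and PECAM1 of endothelium to between 3.97 and 6.88 TPM. The target itself, DDX5 (chromosome 17, 64499616 to 64508199, minus strand), had 1356, 1438 and 1141 CPM in control libraries 1, 2 and 3, against 551.3, 506 and 397.1 CPM in siDDX5 libraries. Its log2 fold change was -1.44 (standard error 0.15), and the quasi-likelihood test of edgeR, with Benjamini-Hochberg adjustment over all genes, gave an adjusted p of 0.0115, so the labels and the target pointed the same way in all 6 libraries. The call of DDX5 was lost without control replicate 1 (-1.41, edgeR adjusted p 0.0916), siDDX5 replicate 1 (-1.54, 0.0583) or siDDX5 replicate 2 (-1.47, 0.0587).

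The comparison of siDDX5 with control cells asked whether the other helicase genes differed in level once DDX5 was lowered. By edgeR's quasi-likelihood test with an adjusted p threshold of 0.05, none of the 50 members was called, where 0.171% of all genes tested were (26 of 15204). With the replicate number as a block, again none passed, against 2.48% of all genes (377). The labels do not state that same-numbered libraries are paired, and the pairing was inferred from these same data. Adjusted p values of the members ran from 0.246 to 0.999, and from 0.0541 to 0.991 with the block. In every alternative setting run, the DESeq2 Wald test and limma-trend included, the count of members passing was also 0.

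The members' fold changes were small. Their log2 fold changes had a median of 0.02, beside -0.00168 over all genes tested, and ran from -0.97 for DHX58 to 0.36 for DDX52. The 95% confidence interval of the change lay within 2-fold in either direction for 48 of the 50 members, against 84% of all genes tested, the exceptions being DDX12P and DHX58. It lay within 1.5-fold for 42 members, against 53.6% of all genes. The 8 members outside it were DDX11, DDX12P, DDX28, DDX39A, DDX41, DDX52, DHX40 and DHX58. Members and all genes were not matched for level, so these shares do not show the helicases to be steadier than other genes. In bulk RNA, fewer cells of a type and less RNA per cell cannot be told apart.

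At an unadjusted p under 0.05 there were 6 members, against 11.3% of all genes tested. Of these, DDX52, DDX31 and DDX47 had higher values in siDDX5 cells, as did 5.29% of all genes at that level. DDX11, DHX58 and DDX12P had lower values, as did 5.99% of all genes. With the block there were 13 members, against 20.4% of all genes. The 7 further members were DDX39A, DHX32, EIF4A3, DHX40, DDX20, DDX41 and DDX28. In 6 members every siDDX5 library exceeded every control library in CPM (DDX52, DDX31, DDX47, EIF4A3, DDX1 and DDX18), where 8.85% of all genes did so. The reverse held in 2 members (DDX11 and DHX58), and in 9.2% of all genes. DHX58 passed the low-count filter on its control libraries alone, so its p and its separation cannot be read as evidence of a change. In 21 members the same-numbered pairs all differed in one direction, 14 higher and 7 lower, against 42.9% of all genes.

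**Figure D1:**
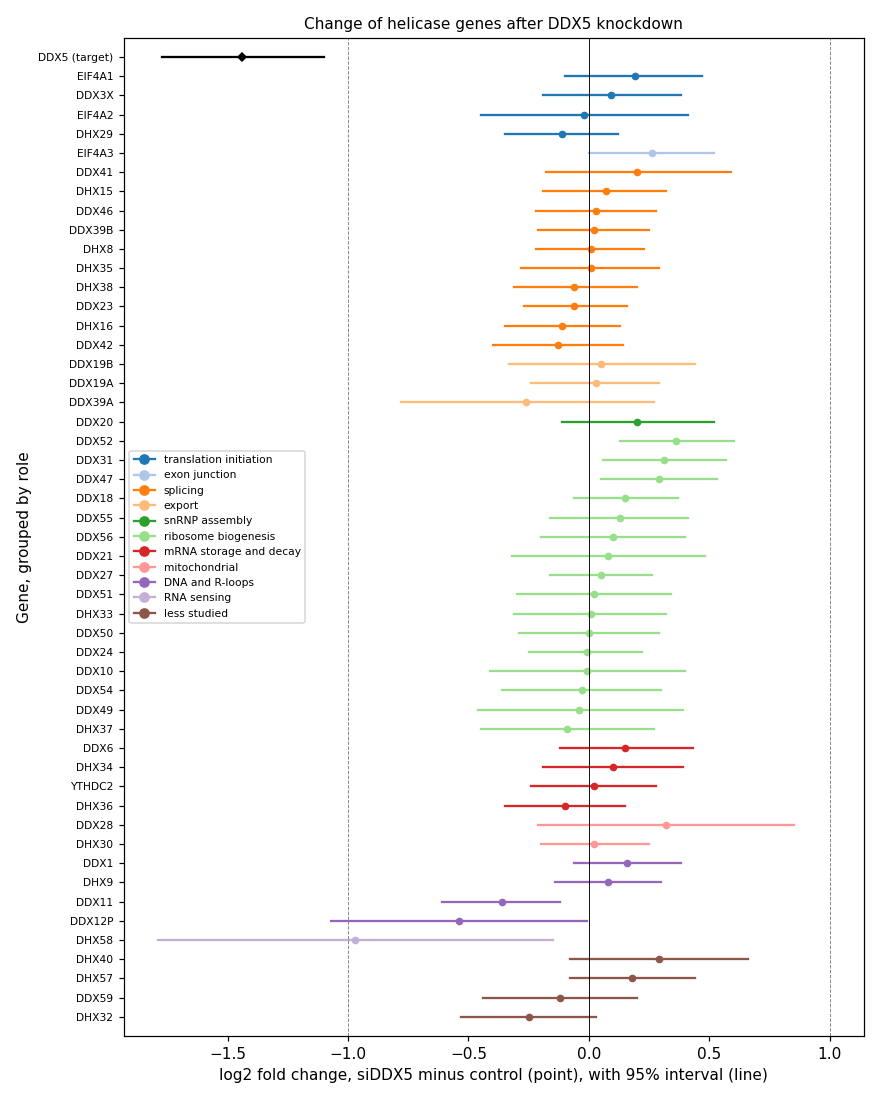
Log2 fold change of the 50 helicase genes and of DDX5 (siDDX5 minus control, horizontal axis), as points with 95% intervals from the edgeR fit, coloured by role; dashed lines mark a 2-fold change. The member intervals lie within the dashed lines except those of DDX12P and DHX58, while DDX5 lies at -1.44.

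The 4 helicases of translation initiation included the most abundant members. EIF4A1 and EIF4A2 encode the helicase that unwinds messenger RNA leaders as part of the cap-binding complex eIF4F, DDX3X helps ribosomes through structured leaders, and DHX29 assists scanning. EIF4A1 (chromosome 17, 7572706 to 7579005) had the highest level of all 50, with 549.3, 582.9 and 465.8 TPM in control against 590.1, 638.3 and 569.0 TPM in siDDX5 libraries. The groups overlapped, and its log2 fold change was 0.19 (95% interval -0.10 to 0.47). EIF4A2 (chromosome 3, 186783205 to 186789900) had 303.3, 482.5 and 295.7 TPM in control against 349.0, 377.8 and 304.1 TPM in siDDX5 libraries. Control replicate 2 was its highest library, and siDDX5 replicate 2 its next highest. EIF4A2 made up 39.9% ± 4.95 (SD, n = 3) of the summed TPM of the 2 genes in control cells and 36.4% ± 1.35 (SD, n = 3) in siDDX5 cells, a difference smaller than the spread in the control cells. DDX3X (log2 fold change 0.09) and DHX29 (-0.11) had overlapping groups as well.

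The genes that work with eIF4A were listed separately, as 7 partners and regulators. In the unblocked fit of edgeR none passed the adjusted threshold. A raw p under 0.05 was found in 3 of the 7, against 11.3% of all genes tested. All 3 were higher, as were 5.29% of all genes at that level. The cap-binding protein gene EIF4E had 77.4, 89.7 and 85.1 CPM in control against 101.1, 106 and 100.5 CPM in siDDX5 libraries. EIF4B, whose product stimulates eIF4A, had 441.4, 421.7 and 545.2 CPM in control against 558.8, 564.2 and 648.5 CPM in siDDX5 libraries. PDCD4, whose product binds eIF4A and blocks it, had 65.4, 56.0 and 73.1 CPM in control against 87.3, 91.8 and 92.1 CPM in siDDX5 libraries. In these 3 genes, and in EIF4G3, every siDDX5 library lay above every control library in CPM, as in 8.85% of all genes. In TPM the groups of PDCD4 stayed separate, while those of EIF4E, EIF4B and EIF4G3 overlapped. PDCD4 had a log2 fold change of 0.48 (standard error 0.12), and edgeR gave adjusted p values of 0.168 unblocked and 0.0369 blocked. It also passed the Wald test of DESeq2, which had no block (0.49, adjusted p 0.0205). The fold changes of EIF4E and EIF4B were 0.29 and 0.33 on the log2 scale, with edgeR adjusted p values of 0.327 and 0.374 (0.0985 and 0.0957 with the block).

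EIF4A3, the third EIF4A gene, encodes the core of the exon junction complex, which marks spliced messenger RNA. Its level (chromosome 17, 80135214 to 80147183) was 130.3, 136.7 and 122.3 CPM in control against 140.2, 177.4 and 148.3 CPM in siDDX5 libraries. The groups did not overlap, with siDDX5 replicate 2 the highest library, but the lowest siDDX5 library was close to the highest control library. The log2 fold change was 0.26 (standard error 0.12), and edgeR gave an adjusted p of 0.448 (blocked, 0.16). Of its 4 partners in the complex, MAGOH, MAGOHB, RBM8A and CASC3, none had an unadjusted p under 0.05, and their log2 fold changes ran from -0.04 to 0.12.

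Splicing was represented by 10 members. They include DDX46, DDX23, DHX16, DHX38, DHX8 and DHX15, which drive successive steps of the spliceosome from assembly to disassembly, and DDX42, DDX41 and DHX35, which are found in spliceosomal complexes. DDX39B takes part in early spliceosome assembly and in export. None of the 10 had an unadjusted p under 0.05 without the block, and none had separate groups. Their log2 fold changes ran from -0.13 for DDX42 to 0.20 for DDX41, with a median of 0.01. DHX15, which releases the spliced intron, had 224.4, 285.2 and 213.7 TPM in control against 275.5, 266.1 and 237.7 TPM in siDDX5 libraries. DDX41 was the only splicing member at an unadjusted p under 0.05 with the block (0.0351, edgeR adjusted p 0.209). Its pairs differed by 0.17, 0.28 and 0.16 on the log2 scale, in one direction, while both replicate 3 libraries lay above the others of their group. Of 16 tested G-patch proteins, which activate DEAH-box helicases such as DHX15 and DHX16, none passed the adjusted threshold and 2 had an unadjusted p under 0.05, a share near the 11.3% of all genes. These were CMTR1 (log2 fold change -0.35, edgeR adjusted p 0.241) and RBM10 (-0.24, 0.409), both lower, as were 5.99% of all genes at that level. In both, every siDDX5 library lay below every control library, as in 9.2% of all genes.

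DDX39B (chromosome 6, 31530219 to 31542448) was the most abundant splicing member, with 342.5, 349.8 and 310.0 TPM in control against 338.9, 341.4 and 332.7 TPM in siDDX5 libraries. Alternative copies of its region, outside the primary assembly, held 96.25% of its counts. Summed over all copies its log2 fold change was 0.02 (95% interval -0.21 to 0.25). Over the primary assembly alone it was -0.35, so the direction depends on which copies are counted. Alternative copies also held 72.11% of the counts of DDX24 and 30.23% of those of DHX16, and over the primary assembly alone their log2 fold changes moved from -0.01 to -0.34 and from -0.11 to -0.33.

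The paralog of DDX39B, DDX39A, acts mainly in export, as do DDX19A and DDX19B, which strip proteins from messenger RNA at the nuclear pore. DDX39A (chromosome 19, 14408819 to 14419383) had 136.2, 154.6 and 95.6 CPM in control against 99.9, 145.6 and 78.2 CPM in siDDX5 libraries. The groups overlapped, with replicate 2 the highest and replicate 3 the lowest in both, but each siDDX5 library lay below its same-numbered control, with log2 ratios of -0.45, -0.09 and -0.29. Its change on the log2 scale was -0.26 (standard error 0.23; edgeR adjusted p 0.726), and with the block the unadjusted p was 0.0177 and the edgeR adjusted p 0.154. The value was -0.06 without siDDX5 replicate 3, -0.10 without control replicate 2, -0.43 without control replicate 3 and -0.53 without siDDX5 replicate 2. DDX39A made up 30.85% ± 3.59 of the summed TPM of the pair in control cells and 26.8% ± 4.23 in siDDX5 cells (SD, n = 3 each), within the spread between libraries.

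DDX19A had 36.8, 37.2 and 31.8 CPM in control against 37.6, 36.7 and 33.5 CPM in siDDX5 libraries, and DDX19B had 18.6, 12.7 and 13.1 against 16.4, 14.8 and 14.9 CPM. Both pairs of groups overlapped. The reads of these neighbours on chromosome 16 are hard to divide. The DDX19A transcript examined was its most abundant coding transcript listed in the same version in GENCODE release 29. Of the 31-base words of that transcript, 51.56% also occurred among the annotated transcripts of DDX19B. The split between DDX19A and DDX19B is therefore uncertain. The direction of DDX19B changed with the unit, from 0.05 in the count fit to -0.22 with length-scaled TPM. Of the 14 genes listed as their partners in export, none passed the adjusted threshold in the unblocked edgeR fit and 3 had an unadjusted p under 0.05, against 11.3% of all genes. SARNP was higher (log2 fold change 0.32, edgeR adjusted p 0.268), and THOC3 (-0.33, 0.342) and NUP214, whose product anchors DDX19 at the pore, were lower (-0.39, 0.264). With the block NUP214 alone of the 14 passed, at an edgeR adjusted p of 0.0486. It had 153.7, 121.8 and 131.2 CPM in control against 110.7, 93.6 and 105.5 CPM in siDDX5 libraries, groups that did not overlap in CPM.

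DDX20, a member of the SMN complex that loads Sm proteins onto small nuclear RNAs, had 48.7, 64.8 and 51.5 CPM in control against 61.8, 71.4 and 57.0 CPM in siDDX5 libraries. The groups overlapped, but every pair was higher in siDDX5 cells. Its log2 fold change was 0.20 (edgeR adjusted p 0.612, and 0.219 with the block). Of the 9 other genes of that complex, none had an unadjusted edgeR p under 0.05 without the block. With the block 1 did, against 20.4% of all genes. This was SMN1, with a blocked log2 fold change of 0.62 (edgeR p 0.0118, adjusted p 0.13). The pairs of SMN1 differed by 0.40, 1.28 and 0.10 on the log2 scale, while SMN2 had a blocked log2 fold change of -0.11. How reads were divided between SMN1 and SMN2 was not examined, so the value of SMN1 alone is uncertain.

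Ribosome biogenesis was the largest role, with 16 members that act in the nucleolus on precursors of the ribosomal subunits. An unadjusted p under 0.05 was found in 3 of the 16, against 11.3% of all genes. All 3 were higher, as were 5.29% of all genes at that level. In 4 of the 16 every siDDX5 library lay above every control library in CPM, against 8.85%. None passed the adjusted threshold, and the median log2 fold change of the 16 was 0.03. The other 12 had log2 fold changes from -0.09 for DHX37 to 0.13 for DDX55.

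DDX52 (ENSG00000278053.4, chromosome 17, 37609739 to 37643464), whose yeast counterpart acts in small-subunit processing, had the highest fold change of the 50. Its level was 72.2, 83.5 and 84.0 CPM in control against 97.5, 108 and 103 CPM in siDDX5 libraries. Every siDDX5 library lay above every control library, and the pairs differed by 0.43, 0.37 and 0.29 on the log2 scale. The log2 fold change was 0.36 (standard error 0.11, 95% interval 0.13 to 0.60), and edgeR gave adjusted p values of 0.246 unblocked and 0.0541 blocked. Leaving out 1 library at a time gave log2 fold changes from 0.30 to 0.40.

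DDX31 (ENSG00000125485.17, chromosome 9, 132592997 to 132670401) and DDX47 (ENSG00000213782.7, chromosome 12, 12813316 to 12829981) had the next highest values in this role. DDX31 had 37.4, 43.1 and 38.5 CPM in control against 51.5, 51.0 and 45.2 CPM in siDDX5 libraries, with siDDX5 replicate 3 nearest to the control libraries. DDX47, which had the highest mean TPM of this role over all 6 libraries (171.5, next to 168.1 for DDX24, whose mean exceeded that of DDX47 in control cells), had 142.3, 152.1 and 133.4 CPM in control against 160.5, 190.1 and 172.7 CPM in siDDX5 libraries. Neither pair of groups overlapped. The log2 fold change of DDX31 was 0.31 (standard error 0.11; edgeR adjusted p 0.338, and 0.113 when blocked), and that of DDX47 was 0.29 (standard error 0.11, 0.351 and 0.113). DDX18 had 145.7, 159.3 and 156.6 CPM in control against 166.9, 170.0 and 176.7 CPM in siDDX5 libraries, groups that did not overlap either. Its log2 fold change was 0.15 (edgeR adjusted p 0.583), and in TPM its groups overlapped.

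The nucleolar paralogs DDX21 and DDX50 lie next to each other on chromosome 10. DDX21 had 266, 357.9 and 230.4 CPM in control against 325, 335.4 and 242.9 CPM in siDDX5 libraries, and DDX50 had 60.4, 67.0 and 75.8 against 62.3, 63.1 and 77.4 CPM. Replicate 3 was the lowest of its group for DDX21 and the highest for DDX50, in both groups. The share of DDX50 in the summed TPM of the pair was 38.1% ± 5.76 in control and 36.2% ± 6.05 in siDDX5 cells (SD, n = 3 each).

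**Figure D2:**
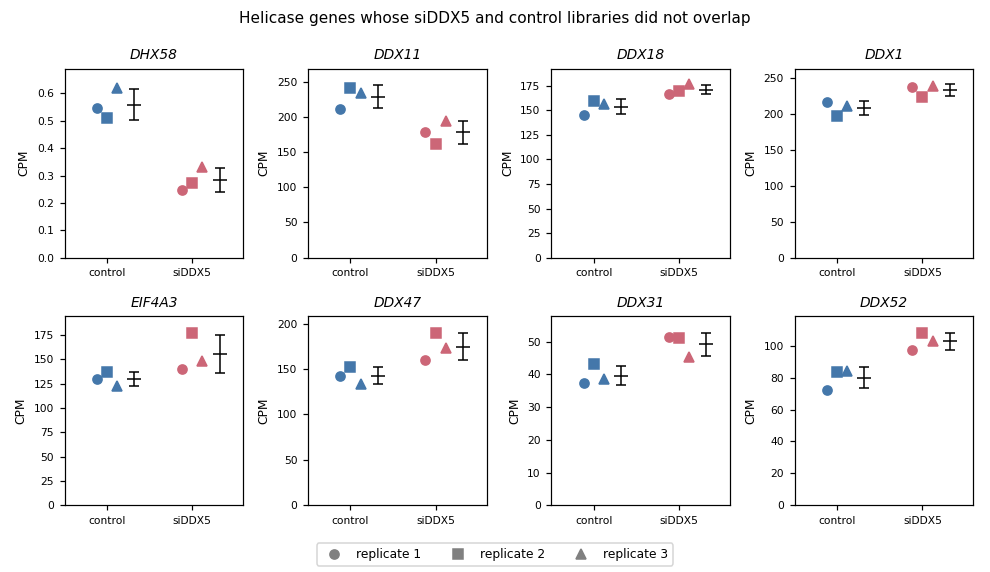
Levels in CPM (vertical axis, from 0) of the 8 helicase genes whose 3 siDDX5 libraries did not overlap the 3 control libraries; symbols are replicates, bars show the mean and SD of each group. DDX11 and DHX58 are lower in siDDX5 cells and the other 6 higher, with DDX52 at 72.2 to 84.0 CPM in control and 97.5 to 108 CPM in siDDX5 libraries. DHX58 passed the low-count filter on its control libraries alone.

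The 4 members in storage and decay of messenger RNA were DDX6, a core component of processing bodies, DHX34, a factor of nonsense-mediated decay, DHX36, which unwinds G-quadruplexes, and YTHDC2, which binds methylated RNA. None had an unadjusted p under 0.05, and their log2 fold changes ran from -0.10 for DHX36 to 0.15 for DDX6. DHX36 had the highest TPM of the 4, from 79.99 to 116.2 TPM in control and from 86.2 to 117.7 TPM in siDDX5 libraries. Of 8 partners of DDX6, none passed the adjusted threshold and 2 had an unadjusted p under 0.05, against 11.3% of all genes. Both were higher, as were 5.29% of all genes at that level. These were EDC3 (log2 fold change 0.25, edgeR adjusted p 0.362) and PATL1 (0.23, 0.398). In CPM, groups were separate in both, in LSM14A (0.19, also higher) and in ATXN2L (-0.17, lower). Over all genes the shares were 8.85% for higher and 9.2% for lower groups. In TPM the groups of each of these partners overlapped.

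Both mitochondrial members act in assembly of the mitochondrial ribosome. Of these, DDX28 (chromosome 16, 68021274 to 68023442) had the second highest fold change of all 50 from a low level, with 7.61, 9.10 and 5.84 CPM in control against 9.07, 12 and 7.01 CPM in siDDX5 libraries. The groups overlapped, replicate 2 was the highest and replicate 3 the lowest in each, and all 3 pairs were higher in siDDX5 cells. Its log2 fold change of 0.32 had a wide 95% interval of -0.21 to 0.85 and was 0.10 without siDDX5 replicate 2, 0.17 without control replicate 3, 0.48 without control replicate 2 and 0.50 without siDDX5 replicate 3. The other, DHX30, had 96.5, 92.7 and 84.7 CPM in control against 93.2, 95.7 and 89.3 CPM in siDDX5 libraries, a log2 fold change of 0.02.

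DDX1, DHX9, DDX11 and the pseudogene DDX12P were grouped by links to DNA and to hybrids of RNA and DNA. DDX11 encodes a DNA helicase that acts in sister chromatid cohesion. DDX11 (ENSG00000013573.16, chromosome 12, 31073845 to 31104791) had 211.2, 241 and 234.4 CPM in control against 177.9, 161.8 and 194 CPM in siDDX5 libraries. Every siDDX5 library lay below every control library, with replicate 2 giving the widest gap, and in TPM the groups were separate as well. The log2 fold change was -0.36 (standard error 0.11, 95% interval -0.61 to -0.12), and edgeR gave an adjusted p of 0.254 (blocked, 0.0854).

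DDX12P (chromosome 12, 9418673 to 9448229) had 16.7, 24.4 and 20.6 CPM in control against 16.2, 9.12 and 16.9 CPM in siDDX5 libraries. Its groups overlapped, and its log2 fold change of -0.54 (standard error 0.24) became -0.31 without siDDX5 replicate 2. The pseudogene and DDX11 share sequence: 58.59% of the 31-base words of the annotated DDX12P transcript occurred among the annotated transcripts of DDX11. Reads could thus be divided between them in more than 1 way, and both values are uncertain to that extent. DDX12P made up 4.87% ± 0.33 of their summed TPM in control and 4.50% ± 1.07 in siDDX5 cells (SD, n = 3 each).

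DHX9, a helicase that resolves RNA structures and R-loops, had 471.8, 488.8 and 450.7 CPM in control against 494.1, 518.9 and 477.8 CPM in siDDX5 libraries, and the log2 fold change was 0.08 (95% interval -0.14 to 0.30). DDX1, part of the transfer RNA ligase complex, had 217.2, 197.8 and 212.1 CPM in control against 237.9, 224 and 239 CPM in siDDX5 libraries. Its groups were separate in CPM but overlapped in TPM, with a log2 fold change of 0.16 (edgeR adjusted p 0.566).

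DHX58, which encodes LGP2, a regulator of the cytosolic sensing of viral RNA, was the lowest member in level and had the lowest fold change. Its level (ENSG00000108771.12, chromosome 17, 42101404 to 42112733) was 0.546, 0.511 and 0.621 CPM in control against 0.248, 0.272 and 0.331 CPM in siDDX5 libraries. All 6 values are low, since 3 counts correspond to 0.115 to 0.165 CPM in these libraries. The log2 fold change was -0.97 (standard error 0.37, 95% interval -1.79 to -0.15), and edgeR gave an adjusted p of 0.358 (blocked, 0.215). The low-count filter, with its default minimum of 10 counts, let DHX58 through on the control libraries alone. Its p values, interval and separation in CPM therefore cannot be read as evidence of a change. On the TPM scale the groups overlapped, with 0.571, 0.554 and 0.706 TPM in control against 0.2998, 0.237 and 0.761 TPM in siDDX5 libraries. Among family genes outside the 50, which include the RNA sensors IFIH1 and DDX58, 9 of the 11 listed were tested and none passed in the unblocked edgeR fit. DDX60, an interferon-induced relative, passed with the block: 19.6, 15.9 and 14.9 CPM in control against 11.8, 10.2 and 10.2 CPM in siDDX5 libraries, a log2 fold change of -0.64 (standard error 0.16; edgeR adjusted p 0.16, and 0.025 when blocked). The Wald test of DESeq2 also called it, at an adjusted p of 0.0238.

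**Figure D3:**
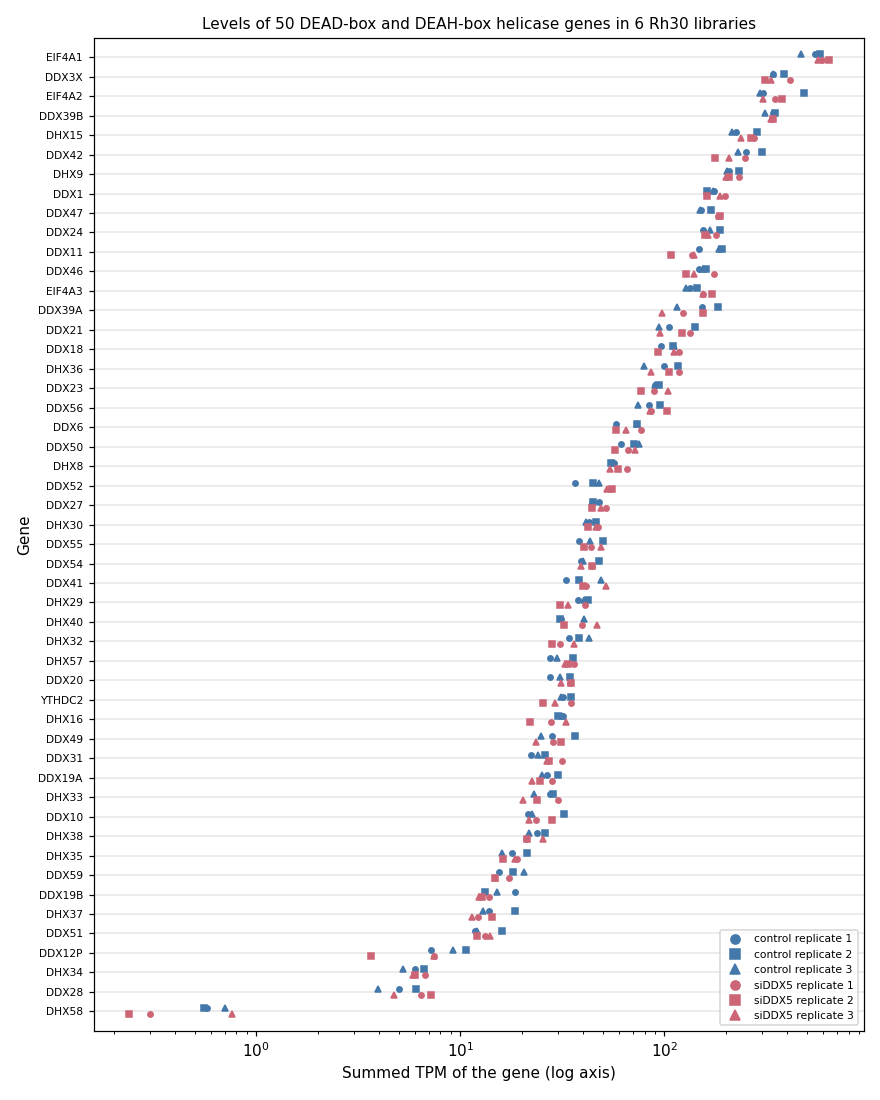
Summed TPM of each of the 50 helicase genes in the 6 libraries (horizontal log axis), ordered by the mean over all libraries; colours are groups and symbols replicates. Levels run from a mean of 565.9 TPM for EIF4A1 to 0.522 TPM for DHX58, and for most genes the 2 groups intermingle.

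The order of levels put EIF4A1 first with a mean of 565.9 TPM, followed by DDX3X (354.5 TPM), EIF4A2 (352.1 TPM), DDX39B (335.9 TPM) and DHX15 (250.4 TPM). All 6 libraries of EIF4A1 except control replicate 3 lay above every library of the next 3 genes, and those 3 overlapped one another. At the other end were DDX12P (7.59 TPM), DHX34 (6.07 TPM), DDX28 (5.56 TPM) and DHX58.

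The remaining members have less settled roles. DHX40 (ENSG00000108406.9, chromosome 17, 59565525 to 59608345) had the highest TPM of these 4 as a mean over all 6 libraries (36.8, next to 35.0 for DHX32, whose mean exceeded that of DHX40 in control cells). Its level was 45.8, 45.4 and 61.2 CPM in control against 57.1, 53.8 and 75.6 CPM in siDDX5 libraries. The groups overlapped, with replicate 3 the highest library of each, yet the pairs differed by 0.31, 0.24 and 0.30 on the log2 scale. Its log2 fold change was 0.29 (standard error 0.16; edgeR adjusted p 0.54), and in the blocked fit the raw p was 0.00643 and the edgeR adjusted p 0.0978. DHX32 was lower in all 3 pairs, with ratios of -0.26, -0.32 and -0.16, and a log2 fold change of -0.25 (edgeR adjusted p 0.499, and 0.154 with the block). DHX57 and DDX59 had log2 fold changes of 0.18 and -0.12.

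Because the tables list every transcript, the use of transcripts within each gene was compared as well, with edgeR's diffSpliceDGE and a Simes test per gene. Of 47 members with at least 2 transcripts tested, 1 passed an adjusted p of 0.05, DHX40, where 1.6% of 10548 genes did (169). The edgeR adjusted p of DHX40 was 0.0304, and 0.03 with the size factors of DESeq2. The call was lost with the replicate block (0.0693), where 1.19% of all genes passed, with no filter on low counts (0.294) and on leaving out any 1 of the 6 libraries. The adjusted p of DHX40 ran from 0.0591 to 0.298 in these 6 edgeR leave-one-out fits. Taken singly, 0 of 61666 transcripts passed edgeR's adjusted threshold, and 7.08% had an unadjusted p under 0.05.

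The transcript behind the DHX40 value was DHX40-208 (ENST00000580218.5), annotated as a target of nonsense-mediated decay. It lies below the 5% share used for naming transcripts and was singled out after its values were seen. It omits the third exon of the main transcript DHX40-201, which covers 146 bases at positions 59570518 to 59570663 and is not a multiple of 3. Its annotated reading frame ends 23 coding bases into the next exon, before a stop codon at positions 59573139 to 59573141. The 2 junctions are shown because they are all that tells these transcripts apart at this point, with the last 15 bases of exon 2 in lower case and the first 15 bases of the exon that follows in capitals (GENCODE release 29, plus strand).
DHX40-201: atctatatgaagcagGGTTTTCACAACATG
DHX40-208: atctatatgaagcagGAGACAGCAATCAAA
DHX40-208 had 20.5, 21.7 and 27.2 estimated counts in the control and 3.3, 0.0 and 2.6 in the siDDX5 replicates. That was 1.75%, 2.22% and 1.84% of the counts of DHX40 in the control and 0.287%, 0% and 0.188% in the siDDX5 replicates. The groups did not overlap, but the siDDX5 values rest on 0.0 to 3.3 counts. The low-count filter, with its default minimum of 10 counts, let this transcript through on the control libraries alone. Its separation, and the usage call of DHX40 behind which it stands, therefore cannot be read as evidence of a change. The mean share was 1.94% ± 0.25 in control and 0.158% ± 0.146 in siDDX5 cells (SD, n = 3 each). DHX40-201 carried nearly all of the rest, with 94.75% ± 1.43 in control and 96.8% ± 0.75 in siDDX5 cells (SD, n = 3 each). Its deposited version is one later than the annotated version from which the exons were read.

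**Figure D4:**
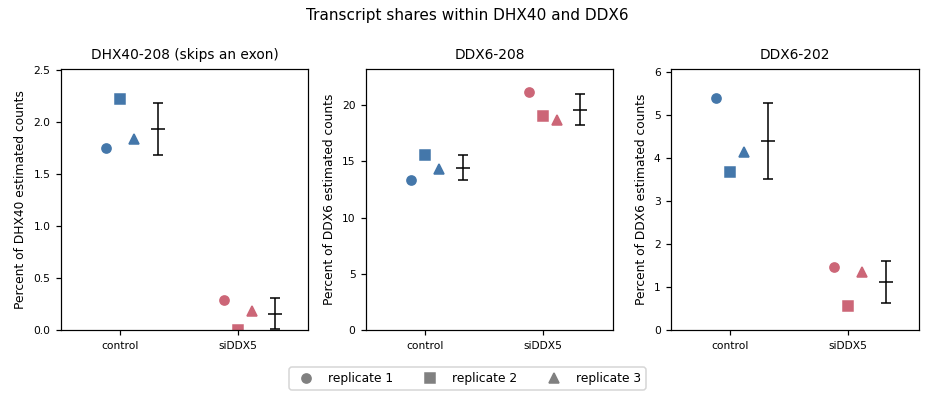
Share of a gene's estimated counts, in percent (vertical axis, from 0), held by DHX40-208, DDX6-208 and DDX6-202 in the 6 libraries; symbols are replicates, bars show the mean and SD of each group. DHX40-208 and DDX6-202 are lower and DDX6-208 is higher in every siDDX5 library than in every control library. All were picked from these same values, and separation of shares was not counted over all transcripts.

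DDX6 had the next smallest p for transcript usage, and edgeR gave an adjusted p of 0.0955 (blocked, 0.0913), above the threshold. DDX6-202 (ENST00000526070.2) made up 5.38%, 3.67% and 4.14% of the counts of DDX6 in the control and 1.46%, 0.563% and 1.36% in the siDDX5 replicates. DDX6-208 (ENST00000620157.4) made up 13.35%, 15.6% and 14.3% in the control and 21.1%, 19.0% and 18.6% in the siDDX5 replicates. Neither set of shares overlapped between groups, but both transcripts were picked from these same values. How often shares were separate over all transcripts was not counted. The main transcript, DDX6-206, held 74.6% ± 0.44 in control and 74.6% ± 3.19 in siDDX5 cells (SD, n = 3 each).

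Of 132 tested member transcripts that made up at least 5% of their gene in either group, 20 had an unadjusted edgeR p under 0.05. Over all 61666 transcripts, minor ones included, 7.08% did so, and in neither set did any pass the adjusted threshold. Transcripts of at least 5% of their gene were not counted over all genes. These shares therefore do not show the helicases to differ from other genes. Among the 132, the smallest unadjusted p was that of DDX52-215 (ENST00000620209.4), annotated for nonsense-mediated decay. It held 28.7%, 24.99% and 30.8% of the counts of DDX52 in the control and 39.3%, 36.9% and 42.3% in the siDDX5 replicates. These shares did not overlap, which was again not counted over all transcripts. Its own log2 fold change was 0.89 (edgeR unadjusted p 0.000633, adjusted p 0.269 over all transcripts). The coding transcript DDX52-213 held 50.1% ± 0.93 in control and 42.2% ± 0.87 in siDDX5 cells (SD, n = 3 each), with a log2 fold change of 0.16. The usage test of DDX52 as a whole gave an edgeR adjusted p of 1.

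In DDX56, the non-coding DDX56-212 held 30.01% ± 4.01 in control and 40.4% ± 1.77 in siDDX5 cells, and DDX56-203, annotated for nonsense-mediated decay, 21.9% ± 2.89 and 15.2% ± 3.14 (SD, n = 3 each). Both had an unadjusted p under 0.05 as single transcripts in edgeR, and neither had an adjusted p under 0.05. The deposited tables hold no estimate of the error made in dividing reads among transcripts, so these shares carry an uncertainty that the SD does not show.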

How the data were processed

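The authors deposited, per the file headers, one kallisto-format table per library, listing estimated counts and TPM of 188753 transcripts. The submitters' processing notes name bcl2fastq 2.20, FastQC 0.11.8, cutadapt 1.11, kallisto 0.46.0 and GRCh38, without roles or settings. The annotation used for quantification is not given in the sources used here. The deposited estimated counts were not normalised, and the deposited TPM values had been scaled for length and library total.

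Transcripts were joined to GENCODE release 29 genes by identifier (169797) and by symbol for copies outside the primary assembly (15315), and 3641 were left out. Of all counts, 99.26% to 99.32% were joined. Estimated counts were summed per gene, rounded, filtered with filterByExpr, scaled with TMM and tested with glmQLFTest in edgeR 4.0.16 (R 4.3.3). Adjusted p values are Benjamini-Hochberg over all features tested. Shares of paralogs were taken from TPM. The biological coefficient of variation was 15.8%, and 10.4% in the blocked fit, which adds the replicate number. The numbers come from the sample titles. They were taken to pair the libraries because deviations from the group means of same-numbered libraries correlated at 0.21, 0.27 and 0.56 across genes. Libraries of different numbers were not compared in this way, and the labels state no pairing. Ratios within pairs had 0.5 CPM added to both values. The p values measure the spread between these samples, which the series calls biological replicates.

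The members, their roles and the partner lists were chosen with earlier results of these data known. Named with all libraries were members called in a test, the 3 highest and 3 lowest by fold change, 5 paralog pairs and the most abundant member of each role. Within a gene, up to 3 transcripts of at least 5% were named by smallest p. Further names (DDX1, DDX18, DDX41 and minor transcripts) were picked with their values known. The scripts were tested on simulated counts. Alternatives were DESeq2 1.42.0, limma-trend 3.58.1 on log2 TPM with 1 or 0.1 added, other filters and joins, length-scaled TPM, the block and leaving out each library.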

Additional observations from a re-analysis of the deposited data

How the results depend on the processing

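Of 745 recomputed values of single members, 661 kept their direction and their side of the threshold, 84 reversed in sign and none crossed the threshold. The cause of the changes below was not tested. With length-scaled TPM counts the reversed log2 fold changes were DDX10 0.0081, DDX19A -0.06, DDX19B -0.22, DDX23 0.02, DDX24 0.03, DDX46 -0.03, DDX54 0.06, DHX33 -0.05, DHX36 0.11 and YTHDC2 -0.08. In both limma-trend fits (pseudocounts 0.1 and 1) they were DDX19A -0.11, DDX3X -0.03, DDX46 -0.08, DDX51 -0.01, DDX54 0.01, DDX6 -0.03, DHX33 -0.10, DHX35 -0.03, DHX36 0.07 and YTHDC2 -0.13, while DDX19B gave -0.25 and -0.24 and DHX9 -0.0079 and -0.0078. DDX10 and DDX50 gave 0.0024 and 0.0047 with DESeq2 size factors, 0.0028 and 0.0046 with the DESeq2 Wald test and 0.00022 and 0.0015 with the primary-assembly join, in which DDX39B gave -0.35. Leaving out 1 library at a time, values that reversed ranged from -0.18 to 0.18 for DDX10, -0.04 to 0.08 for DDX19A, -0.04 to 0.26 for DDX19B, -0.05 to 0.28 for DDX21, -0.08 to 0.07 for DDX24, -0.02 to 0.09 for DDX39B, -0.06 to 0.09 for DDX46, -0.23 to 0.11 for DDX49, -0.10 to 0.09 for DDX50, -0.09 to 0.16 for DDX51, -0.16 to 0.09 for DDX54, -0.03 to 0.19 for DDX56, -0.03 to 0.07 for DHX30, -0.09 to 0.13 for DHX33, -0.06 to 0.10 for DHX35, -0.24 to 0.03 for DHX37, -0.14 to 0.01 for DHX38, -0.05 to 0.06 for DHX8, -0.19 to 0.22 for EIF4A2 and -0.08 to 0.09 for YTHDC2.

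DDX5 stayed lower in all settings run but missed the threshold with length-scaled TPM counts (-1.37, edgeR adjusted p 0.0666) and in the limma-trend fits with pseudocounts of 0.1 (-1.44, 0.0936) and 1 (-1.44, 0.0856). Leaving out 1 library gave -1.54 to -1.30, past the threshold in 3 of 6 fits. The number of genes changed, 26, was 377 with the replicate block, 305 by the Wald test of DESeq2, 129 unfiltered, 2 with length-scaled TPM counts, 1 with each limma-trend setting and 0 to 16 without 1 library. At a raw edgeR p under 0.05, dropping control replicate 1 left 1242 genes and dropping siDDX5 replicate 1 left 2036, although neither fit had a gene past the adjusted threshold. Partner genes called, 0, were 2 with the DESeq2 Wald test (PDCD4 and DDX60) and 3 with the replicate block (these and NUP214). Genes with changed transcript usage, 169, were 367 with no filter, 38 with a mean of at least 50 counts and 211 to 432 without 1 library. Members with changed usage, 1, were 0 with the replicate block, 0 with a mean of at least 50 counts, where DHX40 was not tested, 2 with no filter (EIF4A3 and DDX39A), and 0 to 3 without 1 library. Without siDDX5 replicate 1 the 3 were EIF4A3, DHX8 and DDX3X, and without control replicate 1 the single call was DDX39A. The block changed no call of a member's level, and of transcript usage it ended the call of DHX40 (edgeR adjusted p 0.0693). Without siDDX5 replicate 3 the log2 fold change of DHX40 was 0.14 and that of DDX41 0.06, and without control replicate 3 they were 0.45 and 0.38. Without siDDX5 replicate 2 those of EIF4A3, DDX20 and DDX12P were 0.15, 0.11 and -0.31. Depth limits DHX58 most, at 0.248 to 0.621 CPM, where 3 counts correspond to 0.115 to 0.165 CPM.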
